A study of Homo sapiens with 4 samples.

Results

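The megakaryocyte and platelet genes examined here were ITGA2B, ITGB3, GP1BA, GP9, PF4, PPBP, VWF, SELP, FLI1 and TUBB1. They were the 10 of 58735 genes in the table whose identifiers carry these symbols in GENCODE release 44, and no threshold on a measured value was used to choose them. RNA was sequenced from cells labelled NB4, a human line established from acute promyelocytic leukemia, with 2 control libraries labelled as untreated and 2 libraries made after exposure to 25 nM GNE-987 (24 h). This compound is a bifunctional degrader, a molecule that recruits the VHL ubiquitin ligase so that bound proteins are broken down. All 4 libraries carry this label and differ in the labelled treatment, and the marker genes of control cells went against the label (MPO at 0.0246 and 0 FPKM, GATA1 at 124 and 122 FPKM). No label says that the libraries of a group came from separate cultures, so P values measure the spread between these libraries.

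Megakaryocytes are the bone marrow cells that shed platelets into the blood. Their program is built by GATA1 with its cofactor ZFPM1, by the ETS factor FLI1, by RUNX1 and, late in maturation, by NFE2. They share a precursor with red blood cells, and GATA1 serves both lineages while FLI1 favors megakaryocytes. The products of this program are adhesion receptors on the platelet surface, proteins stored in alpha granules for release, and a dedicated beta tubulin that forms the ring of microtubules at the platelet rim. A promyelocytic leukemia line belongs to the granulocyte branch, in which these genes are not characteristic.

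Only 3 of the 10 genes reached a mean of 0.5 FPKM over the 4 libraries, the level required for testing. FPKM is a count of fragments divided by the length of the gene and by a factor for each library. With GNE-987, ITGA2B and GP1BA were called higher and TUBB1 was called lower. The other 7 genes were at or near 0 in control cells, and FLI1, PF4 and SELP had no read in any library.

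The upstream sequences of the genes with measurable levels are shown because their changes went in opposite directions, and that of GP9 because its reads appeared only in treated cells. RefSeq promoter sequences (GRCh38.p14) were given for 5 of the 10 genes, ITGA2B, GP9, PPBP, SELP and TUBB1. The 250 bases before the annotated start were searched on both strands for the GATA word AGATAA (T also allowed as its first and G as its last letter), the ETS word AGGAAG (C also allowed as its first letter) and the NF-E2 core TGAGTCA, which AP-1 sites share. Capitals mark the matches. The ITGA2B window lies at chr17:44389650-44389899 on the minus strand, that of GP9 at chr3:129060529-129060778 on the plus strand and that of TUBB1 at chr20:59019179-59019428 on the plus strand.
ITGA2B: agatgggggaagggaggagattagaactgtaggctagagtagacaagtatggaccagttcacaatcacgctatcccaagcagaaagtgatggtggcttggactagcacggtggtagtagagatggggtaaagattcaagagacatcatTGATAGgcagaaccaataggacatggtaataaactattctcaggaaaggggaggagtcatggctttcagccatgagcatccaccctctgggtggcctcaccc
GP9: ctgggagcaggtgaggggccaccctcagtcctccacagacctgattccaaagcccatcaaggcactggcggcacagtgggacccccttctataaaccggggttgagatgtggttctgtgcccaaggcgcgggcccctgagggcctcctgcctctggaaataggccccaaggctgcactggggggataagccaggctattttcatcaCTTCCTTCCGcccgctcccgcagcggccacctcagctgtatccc
TUBB1: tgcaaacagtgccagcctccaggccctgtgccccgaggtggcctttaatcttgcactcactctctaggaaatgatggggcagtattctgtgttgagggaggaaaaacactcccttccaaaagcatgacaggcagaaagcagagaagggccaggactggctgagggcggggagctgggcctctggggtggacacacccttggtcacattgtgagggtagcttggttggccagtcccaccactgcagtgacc

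The ITGA2B window held 1 GATA word, TGATAG on the sense strand, from 102 to 97 bases before the start. The GP9 window held 2 ETS words on the antisense strand, AGGAAG and CGGAAG, between 44 and 35 bases before the start and sharing bases with each other. The TUBB1 window held none of the words. Among the 2 windows not printed, that of PPBP held 1 GATA word and 3 ETS words, with 1 of each overlapping, and that of SELP held 1 of each. In the SELP window 69 of the 250 bases lie in exons of the GENCODE annotation. The SELP ETS word, from 53 to 48 bases before the RefSeq start, is among those bases. None of the 5 windows held the NF-E2 core. Of 35116 windows of this length in the RefSeq table, 22.3% held a GATA word, 40.8% an ETS word and 4.2% the NF-E2 core. The matches describe letters and not bound sites.

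ITGA2B encodes integrin alpha IIb (CD41), which pairs with integrin beta 3 to form the fibrinogen receptor of platelets. The gene lies on the minus strand of chromosome 17 (hg38) from 44372180 to 44389649. Without treatment its values were 0.485 and 0.472 FPKM, and with GNE-987 they were 3.71 and 4.27 FPKM. The groups did not overlap, and the difference between them far exceeded the difference within each. Group means were 0.479 ± 0.00903 and 3.99 ± 0.396 FPKM (SD, n = 2 each), a ratio of 8.33. On the log2(FPKM + 0.1) scale the change was 2.82 with an SE of 0.146 and a 95% interval from 2.40 to 3.23 (limma, Benjamini-Hochberg adjusted P = 0.000387).

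FPKM values step by whole reads, which allowed the reads behind each value to be computed back. The ITGA2B values rested on 62 and 58 reads without treatment and on 172 and 209 reads with GNE-987. The treated libraries thus held more ITGA2B reads although they were sequenced less deeply. Per 1000000 reads on genes this was 3.18 and 3.01 against 13.8 and 16.2. ITGA2B was called higher under each scaling tried, with log2 changes from 1.13 after scaling to GAPDH to 2.92 after median-ratio scaling.

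ITGB3, the beta 3 subunit that completes the ITGA2B receptor, did not follow its partner. Without treatment it was at 0.0494 and 0.0309 FPKM, with GNE-987 at 0 and 0.0516 FPKM. The groups overlapped and no library held more than 10 reads, a number that depends on the gene length assumed, so no difference was detectable at this depth. ITGB3 lies on chromosome 17 from 47253827 to 47313743 on the plus strand. A second annotated gene, ENSG00000259753, runs along almost all of it on the same strand and shares 33.2% of its exon bases, and that gene was listed at 0 in all libraries.

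GP1BA and GP9 encode glycoproteins Ib alpha and IX of the receptor complex that tethers platelets to von Willebrand factor. GP1BA had values of 0.903 and 0.940 FPKM in control cells, against 2.49 and 2.54 FPKM in treated cells. The groups did not overlap, with means of 0.921 ± 0.0261 and 2.51 ± 0.0354 FPKM (SD, n = 2 each) and a log2 change of 1.35 with an SE of 0.124 (limma, adjusted P = 0.00138). The reads behind these values were nearly equal in number, 52 and 52 without treatment and 52 and 56 with GNE-987. The FPKM thus differed by about the factor to which each library was scaled. Per 1000000 reads on genes GP1BA was at 2.67 and 2.70 in control cells and 4.19 and 4.33 in treated cells, a ratio of 1.59 with an exact 95% counting interval from 1.20 to 2.10. After scaling to total reads the log2 change was 0.63, after quantile normalization 0.86 and after scaling to GAPDH −0.39, and none of these was called.

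GP1BA lies on chromosome 17 from 4932277 to 4935023 on the plus strand. It overlaps CHRNE, a receptor subunit gene of the neuromuscular junction, on the opposite strand over 2162 bases, but only 97 exon bases (3.86% of the GP1BA exon bases) are shared. CHRNE held 2 reads over both control libraries and 24 over both treated libraries, against 104 and 108 for GP1BA.

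GP9 had no read without treatment and reached 0.135 and 0.637 FPKM with GNE-987, which was 1 read and 5 reads. The gene was below the level for testing, and both treated values are too imprecise for a fold change. GP1BB, the remaining subunit of this complex, was looked at after the values of its partners were seen and was listed at 0 in all 4 libraries. A count of 0 allows up to 3 reads, so GP9 could have been present at up to 0.147 FPKM in control replicate 1.

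TUBB1, the beta tubulin of megakaryocytes and platelets, went the other way. Without treatment it was at 0.894 and 0.931 FPKM, and with GNE-987 at 0.103 and 0.0972 FPKM. The groups did not overlap, and 72 reads in each control library stood against 3 reads in each treated library. Means were 0.913 ± 0.0258 and 0.0999 ± 0.00383 FPKM (SD, n = 2 each), and the log2 change was −2.34 with an SE of 0.278 (limma, adjusted P = 0.00278). Since the treated value rests on 6 reads in all, the level in control cells was 9.14 times that in treated cells with an exact 95% counting interval from 4.10 to 25.3. TUBB1 was called lower under each of the 5 scalings, with log2 changes from −2.25 to −3.75, and lost the call with a pseudocount of 1 (−0.80). Its mean over the libraries, 0.506 FPKM, was just above the level for testing.

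TUBB1 lies on chromosome 20 from 59019429 to 59026654 on the plus strand. Its last 1180 bases overlap ATP5F1E on the minus strand, and all of them are exonic in both genes, which is 35.5% of the TUBB1 exon bases. ATP5F1E, a small subunit of mitochondrial ATP synthase, was at 17.7 and 15.4 FPKM in control cells and rose to 68.8 and 65.3 FPKM (log2 change 2.02 as deposited, 0.17 after scaling to GAPDH). Its change was thus opposite to that of TUBB1. Whether the reads were counted by strand is not given in the sources used here, so reads of the shared stretch cannot be told apart.

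**Figure D1:**
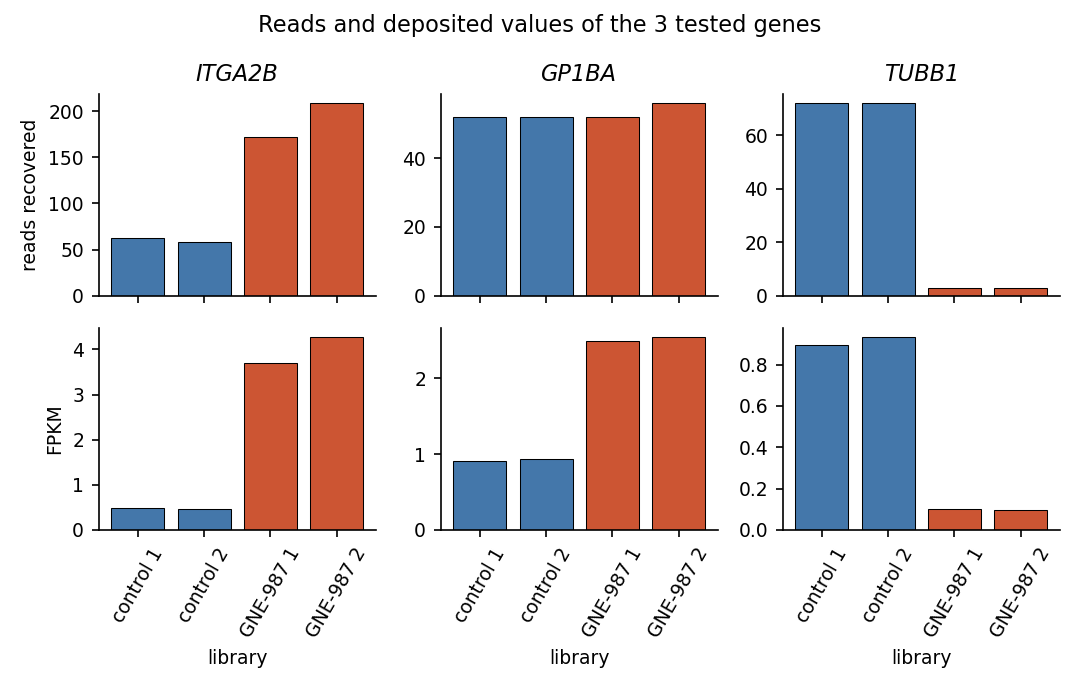
Reads recovered (top) and deposited FPKM (bottom) in each library for ITGA2B, GP1BA and TUBB1 (blue bars, control; red bars, GNE-987). GP1BA had 52 to 56 reads in every library but higher FPKM in treated cells, whereas the reads of ITGA2B and TUBB1 changed with the FPKM.

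The granule proteins were not expressed at a level that could be compared. PF4 and PPBP encode platelet factor 4 and the precursor of neutrophil-activating peptide 2, the chemokines stored in alpha granules, and they lie 4411 bases apart on chromosome 4 (PF4 from 73980811 to 73982027, PPBP from 73986439 to 73988190, both on the minus strand). PF4 was listed at 0 in all 4 libraries, and PPBP was at 0 in 3 libraries and at 0.317 FPKM, about 4 reads, in GNE-987 replicate 2. Another annotated gene, ENSG00000288796, shares 52.1% of the PF4 exon bases and 34.7% of the PPBP exon bases on the same strand and is not in the table. VWF, the glycoprotein that anchors platelets to injured vessel walls, had 3 reads in control replicate 2 and 3 reads in GNE-987 replicate 1. SELP, the P-selectin displayed by activated platelets, had none.

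FLI1, the ETS factor that activates ITGA2B, GP1BA and GP9 in megakaryocytes, was listed at 0 in every library. For a gene of its length, 3 reads would have given 0.0162 FPKM in control replicate 1 and 0.0447 FPKM in GNE-987 replicate 1. These levels are approximate upper limits for FLI1 mRNA, which cover counting error only and assume that its reads were counted. FLI1 lies on chromosome 11 from 128686535 to 128813267, where it overlaps the antisense RNA SENCR, itself at 0 in all libraries.

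Of the 3 genes tested, 2 were called higher and 1 lower. Among all 16668 genes tested, 33.6% were called higher and 24.9% lower, so calls were common in both directions. ITGA2B passed the filter on low values only through its treated libraries and TUBB1 only through its control libraries, so such genes had to differ and their count is a description. Of the genes with a control mean from 0.1 to 1 FPKM, the range of all 3, 54.4% were called higher and 4.28% lower. The filter fixes much of this difference, since a gene this low in control cells that fell further mostly missed the level for testing, and nothing about TUBB1 is read from it. With bulk RNA, fewer cells of a type and less RNA per cell cannot be told apart.

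The scaling matters for these genes. The libraries held 19473852 and 19277084 reads on genes for control cells and 12420719 and 12926809 for GNE-987 cells. The deposited values were scaled so that 1 read of a gene counted 2.75 and 2.61 times as much in the GNE-987 libraries as in control replicate 1. Mitochondrial genes took 3.74% and 4.53% of the control reads and 15.6% and 15.2% of the GNE-987 reads. GAPDH was at 398 and 432 FPKM in control cells and 1501 and 1499 FPKM in treated cells. The median log2 change of all tested genes was 0.17 as deposited, −0.24 after quantile normalization, −0.57 after scaling to total reads and −1.61 after scaling to GAPDH. The part of these differences in the results was not tested.

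**Figure D2:**
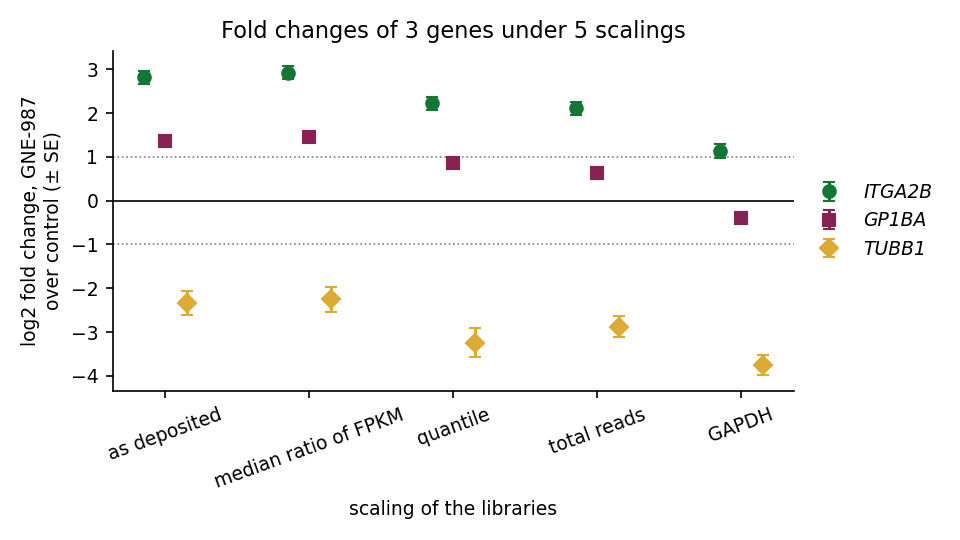
Log2 fold change (GNE-987 over control, with SE bars) of ITGA2B, GP1BA and TUBB1 under 5 scalings of the libraries, with dotted lines at the fold change of 2 needed for a call. ITGA2B stayed above the upper line and TUBB1 below the lower line, and GP1BA moved from 1.46 to −0.39.

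The genes next to the called ones did not move as a block in the deposited values. Within 20 kb of ITGA2B, GRN (progranulin, a secreted lysosomal protein) rose from 14.3 and 11.9 to 42.9 and 40.9 FPKM. Its log2 change was 1.67 as deposited (limma, adjusted P = 0.000577) and −0.17 after scaling to GAPDH. GPATCH8 and FAM171A2 had log2 changes of −0.63 and −0.88 and were not called as deposited. They were called lower under 2 and 3 of the 5 scalings, with −2.45 and −2.58 after scaling to GAPDH. RN7SL258P had a log2 change of 1.33 on 7 reads in all (adjusted P = 0.123), and the pseudogene RPL7L1P5 had 3 reads.

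Within 20 kb of GP1BA, SLC25A11, a mitochondrial carrier, fell from 17.2 and 15.2 to 5.69 and 5.39 FPKM (log2 change −1.53). PFN1, the actin-binding profilin, was higher at 644 and 610 FPKM against 248 and 243 FPKM (log2 change 1.35 as deposited, −0.50 after scaling to GAPDH). RNF167 (−0.72) and ENO3 (0.27) were not called as deposited and were called lower under 2 and 1 of the 5 scalings. Around TUBB1, PRELID3B, a mitochondrial lipid carrier, fell from 17.4 and 15.7 to 2.85 and 1.75 FPKM (log2 change −2.83). CTSZ (−0.44) was not called as deposited and was called lower under 2 of the 5 scalings.

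Most neighbors of the genes below the level for testing held few or no reads. CXCL5, 7451 bases from PPBP, had 2 reads in all, in GNE-987 replicate 2. F5, which encodes coagulation factor V and lies 2260 bases from SELP, had 1 read in each GNE-987 library. ANO2 beside VWF had 3 reads, all in control libraries, JMJD4P1 beside GP9 had 10 reads, all in GNE-987 libraries, and EFCAB13 beside ITGB3 was the exception, at 0.443 and 0.359 FPKM (121 reads) in control cells and 0.215 and 0.0849 FPKM (17 reads) in treated cells, below the level for testing. EFCAB13-DT, antisense to ITGB3, had 8 reads, all in control replicate 1. The remaining overlapping genes in the table (RNU7-186P, ENSG00000276790, RN7SL69P and ENSG00000245008) were listed at 0 in all libraries. ENSG00000290001 near GP9, ENSG00000287037 near PF4 and PPBP, and ENSG00000289837 near TUBB1 are not in the table.

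The genes whose 4 values lay closest to those of GP1BA were SPIRE2, an actin nucleator, HCFC2 and KLHL24, at Euclidean distances of 0.147, 0.247 and 0.262 on the log2(FPKM + 0.1) scale over the 4 libraries. For TUBB1 they were PARP9, COL4A2, a basement membrane collagen, and CCPG1, at 0.188, 0.264 and 0.376. These were the nearest of 10995 protein-coding genes, and over 4 libraries in 2 groups the distance measures little besides the level of each group. PARP9, for instance, was at 0.938 and 1.03 FPKM in control cells and 0.107 and 0.114 FPKM in treated cells.

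The wider megakaryocyte program was described with lists of 5 functions. Transcription factors of the lineage stood high in control cells and were lower with GNE-987. Of 21 factors, 17 were tested, 11 were called lower and 0 higher, and the median log2 change was −1.76 against 0.17 for all tested genes. With the fold threshold, limma-voom on the reads also called 11 lower and 0 higher. At an unadjusted P under 0.05 without the fold threshold, limma gave 16 lower and 1 higher. The share of all tested genes at this looser threshold was not computed, so nothing about the list is read from those counts. All 17 had a control mean of 1 FPKM or more. At that level 35.7% of all tested genes were called lower and 15.9% higher with the fold threshold. GATA1, the master factor of red cells and megakaryocytes, was at 124 and 122 FPKM in control cells and fell to 15.1 and 12.5 FPKM (log2 change −3.15, adjusted P = 0.000191). LDB1, the bridging factor of GATA1 complexes, fell from 75.8 and 77.0 to 22.8 and 21.8 FPKM, and GATA2, the GATA factor of progenitors, fell from 73.6 and 71.2 to 28.0 and 28.5 FPKM. The largest decreases of the list were those of MYB, a progenitor factor (−4.26), NFE2, which drives platelet release and TUBB1 expression (−4.12), and LYL1 (−3.98).

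NFE2 was at 58.6 and 52.9 FPKM in control cells and 3.25 and 2.98 FPKM in treated cells. Its groups did not overlap. NFE2 and TUBB1 were both lower, whereas GATA1 was lower and ITGA2B higher. Of all tested genes, 24.9% were called lower, and a link between these factors and the members was not tested. Under the 5 scalings 10 to 16 of the 17 factors were called lower. Lower calls among all 16668 tested genes also varied, from 3730 after median-ratio scaling to 9734 after scaling to GAPDH. MRTFA, named after its values were seen (0.99, not called as deposited), was called higher after median-ratio scaling. It had the opposite sign after scaling to GAPDH. ERG and ETS1, the ETS relatives of FLI1, were listed at 0 in all libraries.

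Platelet receptors split by their level in control cells. Of 21 receptors, 13 were tested, 4 were called higher and 7 lower, with a median log2 change of −1.60. All 7 lower calls were among the 9 tested receptors with a control mean of 1 FPKM or more, and all 4 higher calls were the 4 with less. The thrombin receptor F2RL3 fell from 11.7 and 13.6 to 0.172 and 0.326 FPKM (log2 change −5.22), the thromboxane receptor TBXA2R from 24.9 and 23.9 to 2.06 and 1.78 FPKM (−3.60), and the thrombin receptor F2R from 6.79 and 7.46 to 1.24 and 0.725 FPKM (−2.78). GP5, which associates with the GP1BA complex, rose from 0.0246 and 0 to 4.54 and 3.85 FPKM (log2 change 5.26). TREML1, stored in alpha granules, was without a read in control cells and at 2.90 and 2.37 FPKM in treated cells, and the collagen receptor GP6 from 0.145 and 0.201 to 5.44 and 5.20 FPKM (4.32). ITGB1, the most abundant receptor of the list, was at 36.6 and 38.0 FPKM in control cells and 38.0 and 37.3 FPKM in treated cells (log2 change 0.01 as deposited, −1.84 after scaling to GAPDH).

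Of all tested genes with a control mean below 1 FPKM, 70.3% were called higher and 2.48% lower, and of those with 1 FPKM or more, 15.9% were called higher and 35.7% lower. The split of the receptors by control level was thus also that of the table as a whole. A gene below 0.1 FPKM in control cells reached the level for testing only when it was higher in treated cells.

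**Figure D3:**
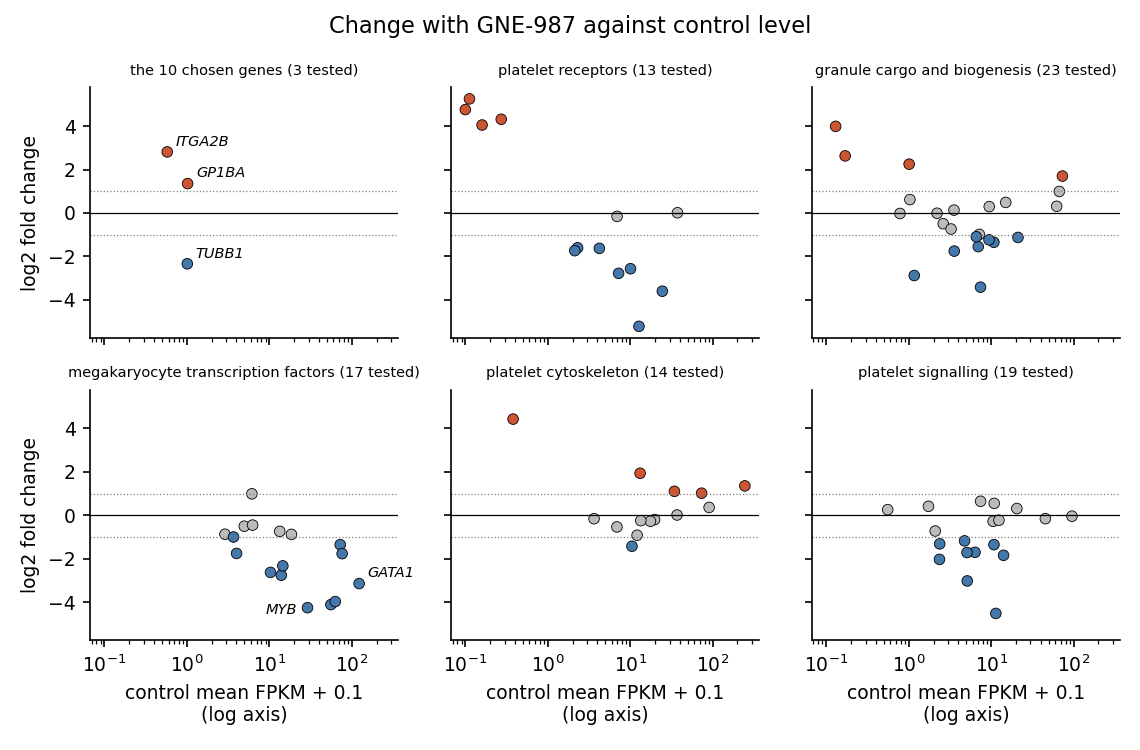
Log2 fold change against control mean FPKM + 0.1 (log axis) for the tested genes of 6 lists (red, called higher; blue, called lower; gray, not called; dotted lines, fold change of 2). Tested transcription factors lie mostly below 0 at control levels above 1 FPKM, and the 4 receptors called higher lie at the left edge.

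Granule cargo and the genes that build granules showed no common direction. Of 33 genes, 23 were tested, 4 were called higher and 8 lower, with a median log2 change of −0.02. All 8 lower calls were among the 18 tested genes with a control mean of 1 FPKM or more. At that level 35.7% of all tested genes were called lower and 15.9% higher. Of the 4 higher calls, 3 had a control mean below 1 FPKM, where 70.3% of all tested genes were called higher. CLU, a chaperone carried in alpha granules, rose from 0.0328 and 0.0273 to 2.01 and 1.94 FPKM (log2 change 3.99), SLC18A2, the monoamine transporter of dense granules, rose by 2.63 and SRGN, the granule proteoglycan, by 2.25 on the log2 scale (SRGN by 0.50 after scaling to GAPDH). ANGPT1, a growth factor stored in platelets, fell from 7.14 and 7.53 to 0.654 and 0.540 FPKM (−3.42), and RAB27B and HPS4, which serve dense granule formation, had log2 changes of −2.88 and −1.76. The most abundant genes were TIMP1, VAMP8 and TGFB1. TIMP1 was at 76.9 and 69.3 FPKM in control cells, with a log2 change of 1.70 as deposited and −0.15 after scaling to GAPDH. VAMP8 and TGFB1 (0.99 and 0.31) were not called as deposited. Under 1 of the 5 scalings each, VAMP8 was called higher and TGFB1 lower.

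Cytoskeletal genes were mostly not called as deposited. Of 19 genes, 14 were tested, 5 were called higher and 1 lower, with a median log2 change of −0.07. Of the 13 tested genes with a control mean of 1 FPKM or more, 4 were called higher and 1 lower. At that level 15.9% of all tested genes were called higher and 35.7% lower. WAS, the actin regulator mutated in Wiskott-Aldrich syndrome, rose from 0.237 and 0.323 to 8.89 and 7.28 FPKM (log2 change 4.43). DNM2, a membrane-scission GTPase, rose from 13.2 and 13.02 to 49.1 and 51.5 FPKM (1.93 as deposited, 0.09 after scaling to GAPDH). PFN1 and FLNA were called higher as deposited (1.35 and 1.02) and had the opposite sign after scaling to GAPDH (−0.50 and −0.84). DIAPH1 was not called as deposited (0.36) and was called lower after scaling to GAPDH (−1.49). TRIM58, a ubiquitin ligase of maturing red cells, was the single gene called lower as deposited (−1.43). The list had 1 higher and 9 lower calls with GAPDH, and 2 higher and 5 lower with scaling to total reads. Over all 16668 tested genes the calls were 3034 higher and 9734 lower with GAPDH. With scaling to total reads they were 4178 higher and 6655 lower, so the shift was also that of the table as a whole.

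Of 27 genes of platelet signalling, 19 were tested, 9 were called lower and 0 higher, with a median log2 change of −0.73. At an unadjusted P under 0.05 alone limma gave 10 lower and 3 higher, for which the share of all tested genes was not computed. With the fold threshold, limma-voom called 9 lower and 0 higher. The 9 called lower were among 18 genes with a control mean of 1 FPKM or more. At that level 35.7% of all tested genes were called lower, so lower calls were common beyond this list too. LCP2, the SLP-76 adaptor downstream of GP6, fell from 11.1 and 11.5 to 0.330 and 0.469 FPKM (log2 change −4.53). PRKCQ, a protein kinase C, changed by −3.03 and fell from 4.90 and 5.16 to 0.508 and 0.550 FPKM. FYN, a SRC kinase, fell from 2.29 and 2.24 to 0.436 and 0.520 FPKM. The abundant genes FERMT3 and TLN1 switch on the ITGA2B receptor through its beta subunit. With LYN they had log2 changes of −0.04, −0.16 and 0.31 and were not called as deposited. After scaling to GAPDH these were −1.90, −2.01 and −1.54. All 19 tested genes of the list were then called lower, as were 9734 of all 16668 tested genes.

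Relatives of the chosen genes were described by family. Among 26 integrin subunits, 12 were tested, 7 were called higher and 1 lower. ITGA2B was 1 of the 7, each of which had a control mean below 1 FPKM, where 70.3% of all tested genes were called higher. All 7 passed the filter only through their treated libraries, so their count is a description. ITGA5, the alpha chain of the fibronectin receptor, fell from 16.1 and 17.1 to 2.999 and 2.90 FPKM (log2 change −2.45). ITGB5 changed by −0.57 and was not called as deposited, and ITGAL and ITGB6 were listed at 0. ITGAV, the other partner of ITGB3, is named after its values were seen, and it was at 6.52 and 7.14 FPKM in control cells and 6.29 and 5.93 FPKM in treated cells.

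Among 9 beta tubulins, 7 were tested, and TUBB1 was the only one called lower as deposited. The lower calls were 2 with quantile normalization, 2 with scaling to total reads and 3 with scaling to GAPDH, and TUBB was among them each time. The higher calls were 4 as deposited, 3 with quantile normalization and 1 with GAPDH. As deposited, 33.6% of all tested genes were called higher and 24.9% lower. Lower calls over all 16668 tested genes numbered 5464 with quantile normalization, 6655 with total reads and 9734 with GAPDH. TUBB, the main beta tubulin, was at 465 and 497 FPKM in control cells and 324 and 312 FPKM in treated cells (log2 change −0.60 as deposited). TUBB4B rose from 178 and 176 to 960 and 959 FPKM (2.44 as deposited, 0.58 after scaling to GAPDH), and TUBB6 changed by −0.16. In control cells the level of TUBB1 was thus a small part of the tubulin mRNA, and the summed FPKM of the 9 genes was 699 and 726 in control cells and 1397 and 1380 in treated cells.

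Among 27 ETS factors, 19 were tested, with 5 called higher and 5 lower. All 5 lower calls were among the 15 with a control mean of 1 FPKM or more, where 35.7% of all tested genes were called lower. Of the 5 higher calls, 3 were among the 4 factors below 1 FPKM, where 70.3% of all tested genes were called higher. ERF (0.38) and ELK1 (−0.54) were not called as deposited, and ELF4 fell from 26.6 and 25.2 to 6.90 and 6.56 FPKM (log2 change −1.93). FLI1, ERG and ETS1 were listed at 0 in all libraries. Of the 9 CXC chemokine genes around PF4, 2 were tested. As deposited, neither was called by limma or limma-voom, or had an unadjusted P under 0.05. After scaling to GAPDH 2 were called lower, and after quantile normalization 1. These scalings called 9734 and 5464 of all 16668 tested genes lower. CXCL3 was at 0.646 and 0.570 FPKM in control cells and 0.539 and 0.562 FPKM in treated cells, CXCL2 had a log2 change of 0.15, and CXCL8 was below the level for testing. CXCL1, CXCL6, PF4 and PF4V1 were listed at 0 in all libraries.

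The marker genes of other lineages were set beside the label NB4. Among 15 promyelocyte and neutrophil markers the defining granule genes were at or near 0 in control cells, with MPO at 0.0246 and 0 FPKM and CTSG and ELANE at 0. MPO rose to 11.8 and 11.3 FPKM with GNE-987 (log2 change 6.71). Their summed FPKM was 42.0 and 37.8 in control cells, most of it from CFD (28.9 and 26.5 FPKM) and SPI1 (7.52 and 5.68 FPKM), and 121 and 127 in treated cells. The largest part of the treated sum was ITGAM, the integrin alpha M of myeloid cells, named after its values were seen, at 0 and 0.0318 FPKM in control cells and 56.8 and 58.04 FPKM in treated cells (log2 change 8.97). AZU1 rose from 2.07 and 2.10 to 12.6 and 10.9 FPKM (log2 change 2.43 as deposited, 0.62 after scaling to GAPDH). The 17 erythroid markers summed to 759 and 755 FPKM in control cells and 1118 and 991 FPKM in treated cells, led by TFRC (243 and 270 FPKM), RHAG (144 and 143 FPKM) and HBA2 (110 and 74.9 FPKM) in control cells. Of these 17 markers, 13 had a control mean of 1 FPKM or more and 1 tested marker had less. The remaining 3, HBE1, SLC4A1 and EPB42, were below the level for testing. The control libraries thus held GATA1 and most, but not all, of the listed erythroid transcripts. With MPO, CTSG and ELANE at or near 0, they went against the promyelocytic label.

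Of the erythroid markers, 14 were tested, 7 were called higher and 5 lower. Of the promyelocyte and neutrophil markers 10 were tested, 6 were called higher and 1 lower. Of the 6 tested with a control mean below 1 FPKM, 4 were called higher and 1 lower. At that level 70.3% of all tested genes were called higher. Of the 4 with 1 FPKM or more, 2 were called higher, against 15.9% of all tested genes at that level. Among all tested genes 33.6% were called higher and 24.9% lower. Scaling to GAPDH turned the counts into 1 higher and 7 lower for the erythroid markers. For the promyelocyte and neutrophil markers it gave 4 higher and 3 lower. Among all 16668 tested genes it gave 3034 higher and 9734 lower calls. Of the 9 endothelial markers, which matter because VWF, SELP and FLI1 are also endothelial genes, 4 were tested and 3 were called higher, each with a control mean below 1 FPKM, where 70.3% of all tested genes were called higher. EGFL7, the most abundant of them, was at 44.1 and 35.7 FPKM in control cells and 22.6 and 21.2 FPKM in treated cells, a log2 change of −0.85 that was not called as deposited and was called lower under 3 of the 5 scalings. PECAM1, an adhesion protein of platelets and endothelium, went from 0.185 and 0.181 to 12.5 and 14.6 FPKM, and CLDN5 from 0.101 and 0.0659 to 4.12 and 5.68 FPKM. The endothelial genes CDH5, ROBO4 and EMCN were listed at 0 in all libraries. The part of these markers in the changes of ITGA2B, GP1BA and TUBB1 was not tested.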

How the data were processed

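RNA-seq was performed on 4 libraries of NB4 cells, 2 control and 2 GNE-987, made per the labels with an Illumina TruSeq RNA kit from Trizol-extracted total RNA. The submitters' processing notes name HISAT2 2.0.5 and hg38. The authors deposited FPKM values per gene, and the counting program, its strand setting and the annotation are not given in the sources used here. Genes were named from GENCODE release 44, which held 58207 of the 58735 identifiers (99.1%).

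Genes that averaged 0.5 FPKM or more were tested on log2(FPKM + 0.1) with limma 3.58.1 in R 4.3.3 (intensity trend, no replicate block). A call required an unadjusted P under 0.05 with a fold change above 2 or below 0.5. Adjusted P values are Benjamini-Hochberg values over all 16668 tested genes.

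Since FPKM values step by whole reads, read numbers were computed back from them, at the annotated exon length for 16634 of 32895 genes above 0 and at the nearest whole length that gave whole reads in all libraries for 16184, with a relative tolerance of about 5e-08. For ITGA2B, ITGB3, GP1BA and PPBP a multiple or a simple fraction of that length also gave whole reads, so their read numbers are fixed only up to such a factor. The factors by which the deposited values were scaled were proportional to median-ratio size factors of these reads within 0.0281%. Intervals and read limits cover counting error only.

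The members and lists were chosen with earlier results of these data known. Named by rule were the 10 genes, annotated genes within 20 kb, the 3 genes of each list with the highest control means, up to 3 called higher and 3 called lower per function list, family or marker genes with a defining role listed at 0, the 3 genes nearest in profile to the 2 members with the highest control means, and GAPDH. The lists were platelet receptors, granule cargo and biogenesis, megakaryocyte transcription factors, platelet cytoskeleton, platelet signalling, ETS family, integrin subunits, beta tubulins, CXC chemokines of the PF4 cluster, and erythroid, promyelocyte and neutrophil, and endothelial markers. The fit and the read recovery were tested on simulated data. Alternatives were 4 other scalings, pseudocounts of 1 and 0.01, other filters and thresholds, limma-voom on the reads, a replicate block and the omission of single libraries. Alternatives that need deposited counts were not run, since the values are FPKM. One gene of the receptor list is counted but not reported by name here.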

Additional observations from a re-analysis of the deposited data

How the results depend on the processing

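The number of the 10 genes called higher fell from 2 to 1 with scaling to GAPDH, quantile normalization, scaling to total reads and a pseudocount of 1, in each case through the loss of GP1BA, whose log2 change reversed to −0.387 with GAPDH. The number called lower fell from 1 to 0 with a pseudocount of 1 and, since TUBB1 was then not tested, when a mean of 1 FPKM was required. Over all genes, scaling to GAPDH gave 3034 higher and 9734 lower calls and scaling to total reads gave 4178 higher and 6655 lower, against 5602 and 4148. The calls in either direction were 20 instead of 12 for the granule list, 10 instead of 6 for the cytoskeleton list and 19 instead of 9 for the signalling list with GAPDH, and 3 for the cytoskeleton list with quantile normalization. Without any filter, 58735 genes were tested and 7880 were called higher. With a replicate block, 5667 genes were called higher and 4186 lower and the 3 members kept their calls. The deviations of same-numbered libraries had a correlation of 0.00537 over genes, so the numbers were not taken to pair the samples. Leaving out each library in turn gave 4978 to 5374 higher and 3714 to 4101 lower calls, with the lone library of a group assumed to vary like the other group. The log2 change was then 2.72 to 2.92 for ITGA2B, 1.33 to 1.38 for GP1BA and −2.32 to −2.37 for TUBB1, all called. The cause of these shifts was not tested. Depth limits the 7 genes that were not tested. At the gene lengths used, none of them had more than 10 reads in a library, and for ITGB3 and PPBP the reads are fixed only up to a factor.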
